A study of Mus musculus with 4 samples.

Results

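The circadian clock genes were followed in sarcomas from W/+ mice that had or had not received arsenic trioxide (ATO). The set was read from the expression table by gene symbol and holds the core clock genes Clock, Arntl, Per1, Per2, Per3, Cry1 and Nr1d1 and the output genes Dbp and Tef. The 10 symbols searched gave 9 genes, because Arntl and Bmal1 are names of the same gene, out of 56691 genes in the table. All 9 genes had enough reads to enter the test, which covered 17188 genes. The question behind the set was whether the time of day at which the tumors were collected could have differed between the groups.

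RNA-seq was performed on 4 sarcomas. ATO 1 and ATO 2 came from mice that drank water with ATO, and PBS 1 and PBS 2 from controls, whose labels name PBS and which the study's text calls untreated. All 4 carried the germline genotype p53R282W/+, so the comparison has no tumor with wild-type p53 alleles only. The labels number the residue as in human p53. The age at collection, the site of each tumor, the hour of collection and the light schedule are not given in the sources used here, and neither is whether each sarcoma came from a different mouse, so the p-values below measure only the spread between these 4 samples. The growth protocol in the labels describes cultured cells fed with dexamethasone, isobutylmethylxanthine and insulin, which the study's text does not describe for the sarcomas.

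The mammalian clock is a feedback loop of transcription. CLOCK and BMAL1 (the product of Arntl) bind E-box sequences and switch on the Per and Cry genes, whose proteins return to the nucleus and block them. A second loop runs through NR1D1 (REV-ERB alpha), which is itself driven from E-boxes and represses Arntl through ROR elements, so that in most peripheral tissues Arntl RNA peaks when Nr1d1, Dbp and the Per RNAs are low, and the reverse. DBP and TEF are transcription factors of the PAR bZIP family that carry the rhythm to output genes through D-boxes. Muscle and fat keep clocks of their own, and glucocorticoids can shift the phase of peripheral clocks, with Per1 as a direct target.

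The regulatory sequence in front of the clock genes shows which of these elements each gene carries close to its start. RefSeq start windows on GRCm38.p6, running from 250 bases before to 50 bases after the start, were at hand for 8 of the 9 genes, with 13 windows in all, and Per2 was the gene without one. Both strands were searched for the E-box CACGTG, its variant CACGTT, the D-box TTANGTAA, the ROR elements TAGGTCA and TGGGTCA, and the cyclic AMP element TGACGTCA. Of 32851 RefSeq promoters of the same length, 7.15% held CACGTG, 4.68% CACGTT, 2.32% the D-box, 2.61% and 3.98% the ROR elements, and 1.79% the cyclic AMP element. The 250 bases before the start are printed, 5′ to 3′ on the gene's strand, for Tef, whose level differed most between the groups, for Nr1d1, which differed most between sarcomas of the same treatment, for Per1, the most abundant, and for Per3, which carries D-boxes. Capitals mark the matches. They are at chr15:81802423-81802672 (plus strand) for Tef, chr11:69098699-69098948 (plus) for Per1, chr11:98775378-98775627 (minus) for Nr1d1 and chr4:151044666-151044915 (minus) for Per3.
Tef: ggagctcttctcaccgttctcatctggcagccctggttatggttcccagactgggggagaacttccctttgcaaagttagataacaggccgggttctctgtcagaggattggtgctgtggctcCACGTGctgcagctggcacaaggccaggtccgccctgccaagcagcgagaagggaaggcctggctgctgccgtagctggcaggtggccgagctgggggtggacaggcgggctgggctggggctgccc
Per1: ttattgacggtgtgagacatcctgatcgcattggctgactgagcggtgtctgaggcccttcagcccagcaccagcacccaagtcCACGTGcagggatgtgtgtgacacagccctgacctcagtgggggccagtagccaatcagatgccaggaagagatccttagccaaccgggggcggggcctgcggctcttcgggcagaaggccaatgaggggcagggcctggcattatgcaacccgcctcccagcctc
Nr1d1: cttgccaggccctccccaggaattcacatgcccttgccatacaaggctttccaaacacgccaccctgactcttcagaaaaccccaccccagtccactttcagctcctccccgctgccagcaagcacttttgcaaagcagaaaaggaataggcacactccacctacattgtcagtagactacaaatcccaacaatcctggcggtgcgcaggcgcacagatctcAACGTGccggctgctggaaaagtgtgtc
Per3: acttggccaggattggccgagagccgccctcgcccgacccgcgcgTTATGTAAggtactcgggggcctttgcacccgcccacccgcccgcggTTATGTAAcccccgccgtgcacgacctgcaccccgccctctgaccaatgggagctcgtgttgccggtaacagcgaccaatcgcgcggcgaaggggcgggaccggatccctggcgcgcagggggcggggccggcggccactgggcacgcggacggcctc
Tef has an E-box that starts 127 bases before the first of its start sites, and its second start site, further into the gene, has another at 138 bases. Per1 has an E-box at 166 bases, and Nr1d1 has the variant on the opposite strand (AACGTG as printed) at 28 bases. Per3 has D-boxes at 205 and 158 bases. Cry1 holds both an E-box at 60 bases and the variant at 79 bases, and Arntl has the ROR element TAGGTCA from 31 bases after its second start. In all, 7 of the 13 windows, from 6 genes, held a match. The windows of Clock and Dbp held none of these letters. A match is a description of the sequence and not a shown binding site.

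**Figure D1:**
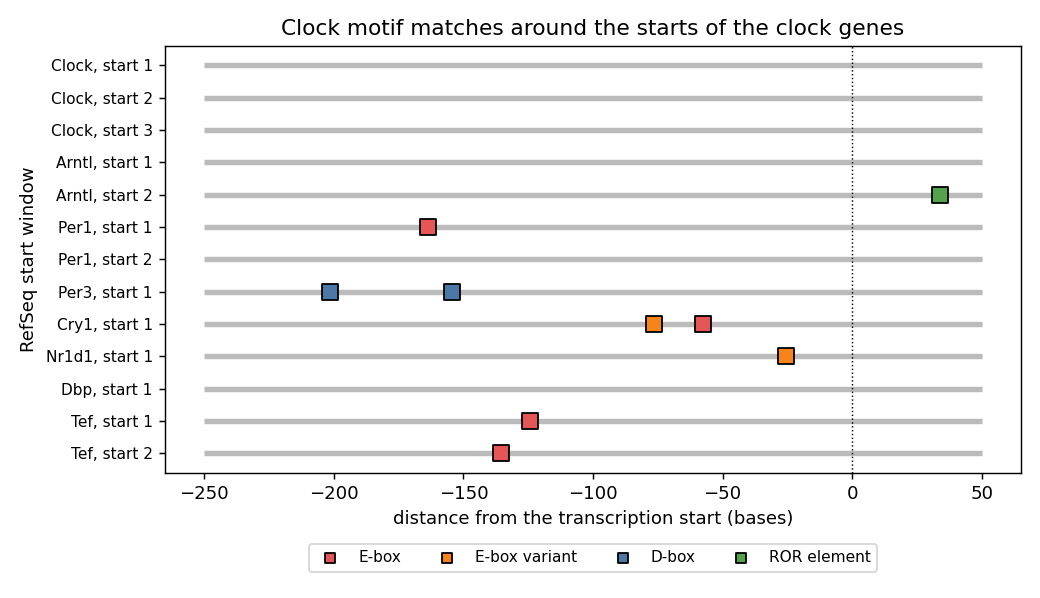
Matches to clock motifs (squares, coloured by motif) along each RefSeq start window of 8 clock genes (grey bars), with the distance from the transcription start in bases on the x axis and 1 window per line. Matches lie in 7 of the 13 windows, and the D-boxes are in Per3.

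Levels are given below as CPM, counts divided by the library size after scaling with the TMM factor of edgeR, and as FPKM, which also divides by gene length and is the scale used to compare genes with each other. The values of the sarcomas are always given in the order PBS 1, PBS 2, ATO 1 and ATO 2. Total counts ranged from 15259695 to 18134000, and mitochondrial genes took between 1.98% and 2.59% of the counts in 3 sarcomas and 14.7% in ATO 2. A count of 0 would allow up to 3 counts, or between 0.151 and 0.240 CPM, and the lowest count of any clock gene was 99 (Dbp in PBS 1). The sarcomas also differed in tissue markers. The summed level of 8 skeletal muscle markers was 6.88, 149, 17070 and 1179 FPKM, and that of 6 adipocyte markers was 13.6, 72.7, 237 and 1401 FPKM. All 8 muscle and all 6 adipocyte markers were higher in both ATO sarcomas than in both PBS sarcomas on both scales. Of all genes tested, 19.7% were so in CPM and 12.8% in FPKM. At a count of 0 were Tnnc2 and Plin1 in PBS 1 and Lep in PBS 1 and PBS 2. The 6 mesenchymal markers, typical of sarcomas, were detected in all 4, with summed levels of 4861, 1483, 3979 and 1166 FPKM. Of these 6, 2 (Vim and Pdgfrb) were below in both ATO sarcomas on both scales and 0 were above. Of all genes tested, 20.2% were below in CPM and 29.6% in FPKM. In such bulk samples, fewer cells of a type and less RNA per cell cannot be told apart.

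None of the 9 clock genes passed the test between ATO and PBS. At an adjusted p under 0.05, edgeR called 0 clock genes and 0% of all genes tested. At an unadjusted p under 0.05 it gave 2 clock genes, Per2 and Tef, both higher in ATO, where 5.44% of all genes tested were past that p and higher. That count of 2 fell to 0 without PBS 1, without PBS 2 and in limma with 1 FPKM added, and to 1 without ATO 1, without ATO 2, under total counts and in limma with 0.1 FPKM added. The clock genes above in both ATO sarcomas were Per2, Per3 and Tef, which is 3 of 9 in CPM, where 19.7% of all genes tested were above, and the same 3 in FPKM, where 12.8% were. No clock gene was below in both, against 20.2% of all genes in CPM and 29.6% in FPKM. The fitted level was higher in ATO for 9 of 9 clock genes, against 49.2% of all genes, but for 6 of 9 when counts were scaled by the total alone or FPKM was fitted with limma, and for 6 to 8 of 9 when any 1 sarcoma was left out. The median log2 fold change was 0.59 over the clock genes and -0.016 over all genes tested. The median over the clock genes was 0.27 under total counts, 0.22 and 0.24 in limma with 1 and 0.1 FPKM added, and between 0.44 (without PBS 1) and 1.15 (without PBS 2) with 1 sarcoma left out.

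Other tools made calls elsewhere in the genome but not among the clock genes. DESeq2 called 753 genes, 4.12% of those with an adjusted p, and 0 clock genes, whose smallest adjusted p was 0.208. In edgeR without a filter on low counts 541 genes passed, which is 1.75%, again with 0 clock genes and a smallest adjusted p of 0.315 among them. The biological coefficient of variation was 62.5%.

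**Figure D2:**
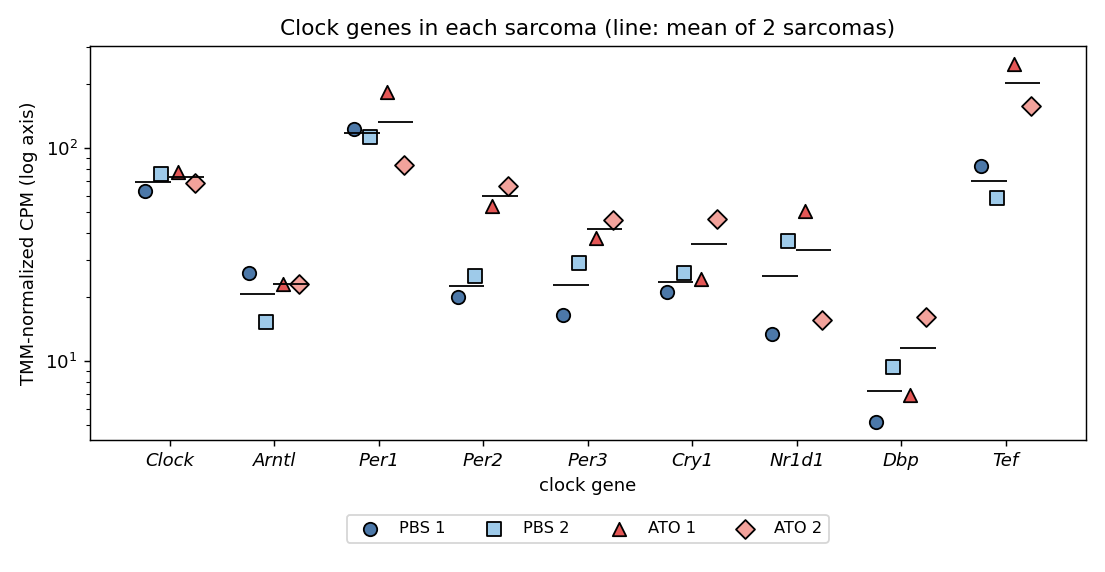
TMM-normalized CPM (log axis) of the 9 clock genes in PBS 1 and PBS 2 (blue) and ATO 1 and ATO 2 (red), 1 point per sarcoma, with a line at the mean of each group of 2. Per2, Per3 and Tef are separated by group, while Per1 and Nr1d1 are high in ATO 1 and low in ATO 2.

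Clock and Arntl form the positive arm of the loop, and their groups overlapped. Clock (chr5:76209868-76304792, minus strand), which codes for the DNA-binding partner of BMAL1, was at 62.8, 75.5, 77.2 and 68.8 CPM. The PBS and ATO ranges overlapped, and edgeR gave a log2 fold change of 0.08 (SE 0.36, adjusted p = 0.965). Its FPKM spanned 1.48-fold over the 4 sarcomas. Arntl (chr7:113207465-113314126, plus strand), the gene for BMAL1, was at 26.1, 15.3, 23.0 and 23.2 CPM. Its highest and lowest values were both in PBS sarcomas, with the ATO sarcomas between them. The fitted log2 fold change was 0.16 (SE 0.47, adjusted p = 0.944 in edgeR).

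Among the Per genes, which code for the proteins that shut the loop, Per2 and Per3 were separated by group and Per1 was not. Per2 (chr1:91415982-91459324, minus strand) was at 20.0, 25.3, 53.7 and 66.3 CPM. Both ATO sarcomas were above both PBS sarcomas, and the ATO pair differed from each other by less than the groups did. The mean was 22.7 ± 3.72 CPM in PBS and 60.04 ± 8.92 CPM in ATO (SD, n = 2 each). The fitted fold was 2.65 (log2 1.40, SE 0.39), with an edgeR p of 0.0179 before and 0.570 after adjustment. Per3 (chr4:151003652-151044665, minus strand) was at 16.5, 28.97, 37.8 and 46.2 CPM. Its groups did not overlap either, but PBS 2 was 1.76-fold above PBS 1. The log2 fold change was 0.89 (SE 0.47, adjusted p = 0.648 in edgeR).

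Per1 (chr11:69095217-69109960, plus strand) had the highest mean level of the clock genes, at 22.7 FPKM over the 4 sarcomas. It was at 123, 113, 184 and 83.4 CPM. The ATO sarcomas held both the highest and the lowest value, 2.20-fold apart, and the PBS sarcomas lay between them. The log2 fold change was 0.18 (SE 0.52, adjusted p = 0.942 in edgeR). Cry1 (chr10:85131700-85185064, minus strand), the partner of the PER proteins in repression, was at 21.1, 26.0, 24.3 and 46.5 CPM. It was high in ATO 2 only, and ATO 1 lay between the PBS sarcomas. The log2 fold change was 0.59 (SE 0.49, adjusted p = 0.770 in edgeR).

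Nr1d1 (chr11:98767932-98775333, minus strand), which codes for REV-ERB alpha, had the widest range of the 9 genes in FPKM, while in CPM that of Tef was wider. It was at 13.5, 36.7, 50.9 and 15.6 CPM, or 4.76, 13.2, 16.6 and 4.15 FPKM, a 4.002-fold span. A high and a low sarcoma stood in each group, with PBS 2 2.72-fold above PBS 1 and ATO 1 3.26-fold above ATO 2. The log2 fold change between the groups was 0.41 (SE 0.81, adjusted p = 0.911 in edgeR). Nr1d2, the gene for the related receptor REV-ERB beta, was at 53.3, 69.5, 92.1 and 50.6 CPM, with its highest values in the same pair of sarcomas, PBS 2 and ATO 1.

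Of the output genes, Tef had the largest fitted change of the set and Dbp was the least abundant by counts. Tef (chr15:81802421-81826863, plus strand) was at 82.2, 58.5, 249.5 and 158 CPM. Both ATO sarcomas were above both PBS sarcomas, with ATO 1 the highest. The mean was 70.4 ± 16.7 CPM in PBS and 204 ± 64.8 CPM in ATO (SD, n = 2 each), a fitted fold of 2.89 (log2 1.53, SE 0.47), with an edgeR p of 0.0244 before and 0.570 after adjustment. Dbp (chr7:45705088-45710203, plus strand), one of the strongest rhythmic RNAs of peripheral tissues, was at 5.21, 9.37, 6.98 and 16.2 CPM. The order of the sarcomas crossed the groups, with ATO 1 between PBS 1 and PBS 2. The log2 fold change was 0.67 (SE 0.70, adjusted p = 0.820 in edgeR). Some of these genes share exonic bases with a gene on the other strand, and whether reads were counted by strand is not given in the sources used here. Dbp shares 539 bases (18.0% of its exonic length) with Sphk2 and Nr1d1 shares 263 bases (8.55%) with Thra. Sphk2 held 584, 813, 452 and 537 counts, where Dbp held 99, 186, 127 and 202. Thra held 1770, 810, 1655 and 946 counts, where Nr1d1 held 256, 728, 927 and 195. Whether reads of Sphk2 or Thra entered the counts of Dbp or Nr1d1 was not tested. Tef shares 193 bases (2.45%) with Gm17597, which held at most 14 counts in a sarcoma.

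**Figure D3:**
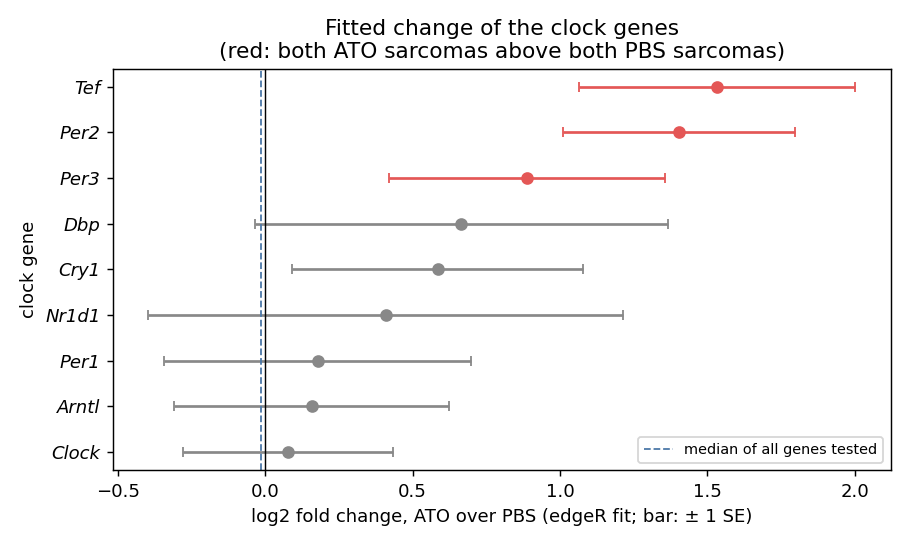
Fitted log2 fold change of each clock gene, ATO over PBS, with bars of ± 1 SE from the edgeR fit, and a dashed line at the median of all genes tested. Tef, Per2 and Per3 (red, groups not overlapping in CPM) lie highest, between 0.89 and 1.53, and the bars of Clock, Arntl, Per1, Nr1d1 and Dbp reach below 0.

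Sarcomas of the same treatment also differed from each other. In 5 of the 9 clock genes (Clock, Per1, Cry1, Nr1d1 and Dbp) the gap between ATO 1 and ATO 2 was larger than the fitted change between the groups, against 56.3% of all genes tested. By CPM, PBS 1 was lowest in 6 genes, Clock, Per2, Per3, Cry1, Nr1d1 and Dbp. ATO 1 was highest in Clock, Per1, Nr1d1 and Tef, and ATO 2 in Per2, Per3, Cry1 and Dbp. The share of all genes with the same highest or lowest sarcoma is not given here. The genes driven from E-boxes did not share 1 order: Per1 and Nr1d1 were high in ATO 1 and low in ATO 2, Dbp and Cry1 were higher in ATO 2 than in ATO 1, and Per2 was similar in both. The term E-box driven is taken from general knowledge of the clock and not from the motif search. In that search the windows of Dbp and Per3 held no E-box, and Per2 had no window.

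Per length, the order of the genes by mean FPKM over the 4 sarcomas was Per1 at 22.7, Tef at 16.96, Nr1d1 at 9.67, Cry1 at 8.54, Per2 at 6.75, Clock at 5.20, Per3 at 3.27, Dbp at 3.03 and Arntl at 2.91. Neighbours in that order had overlapping ranges except Clock and Per3, where the lowest Clock value, 4.10 FPKM, was above the highest Per3 value, 3.95 FPKM.

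The ratio of an E-box driven gene to Arntl within a sarcoma does not depend on how libraries are scaled, and in a rhythmic tissue it moves with the time of day. The ratio of Dbp to Arntl, in FPKM, was 0.500, 1.54, 0.762 and 1.75. Both low values and both high values were split between the groups, with PBS 1 and ATO 1 low and PBS 2 and ATO 2 high. On the log2 scale, with 0.1 FPKM added to both genes, ATO minus PBS was 0.39, against an SD of 1.10 in PBS and 0.82 in ATO, and an exact two-sided permutation test gave p = 0.667. The difference was -0.39 without PBS 1 and -0.20 without ATO 2, and 1.17 without PBS 2 and 0.97 without ATO 1. With 2 against 2 sarcomas such a test cannot go below 0.333. The ratio of Nr1d1 to Arntl was 1.26, 5.85, 5.41 and 1.65. Here PBS 2 and ATO 1 were high and PBS 1 and ATO 2 low, a split that also crosses the groups but in another way than for Dbp. The mean log2 difference was 0.14, and it ran from -0.95 without PBS 1 to 1.22 without PBS 2.

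The ratios of Per2 and Tef to Arntl separated the groups. Per2 to Arntl was 0.987, 2.12, 3 and 3.68, a log2 difference of 1.18, or 0.65 without PBS 1 and 1.72 without PBS 2. Tef to Arntl was 3.01, 3.65, 10.4 and 6.51, a log2 difference of 1.30. For Per3 the ratios were 0.495, 1.48, 1.29 and 1.56, so that PBS 1 alone was low, with PBS 2 above ATO 1. For Per1 they were 6.30, 9.84, 10.7 and 4.81, and the ATO sarcomas held both the highest and the lowest. With the ratios of Cry1 and Clock counted too, 2 of 8 ratios to Arntl were higher in both ATO sarcomas. The share of all genes whose ratio to Arntl separates in this way is not given here. For levels alone, 19.7% of all genes tested were above in CPM and 12.8% in FPKM. Arntl had a fitted log2 fold change of only 0.16 (SE 0.47) in edgeR. In limma with 0.1 FPKM added it was -0.067, against 1.11 for Per2 and 1.23 for Tef. The group differences in these ratios therefore mostly repeat those in the levels of Per2 and Tef. Within PBS the ratios also carry the spread of Arntl, at 3.78 FPKM in PBS 1 and 2.25 FPKM in PBS 2.

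**Figure D4:**
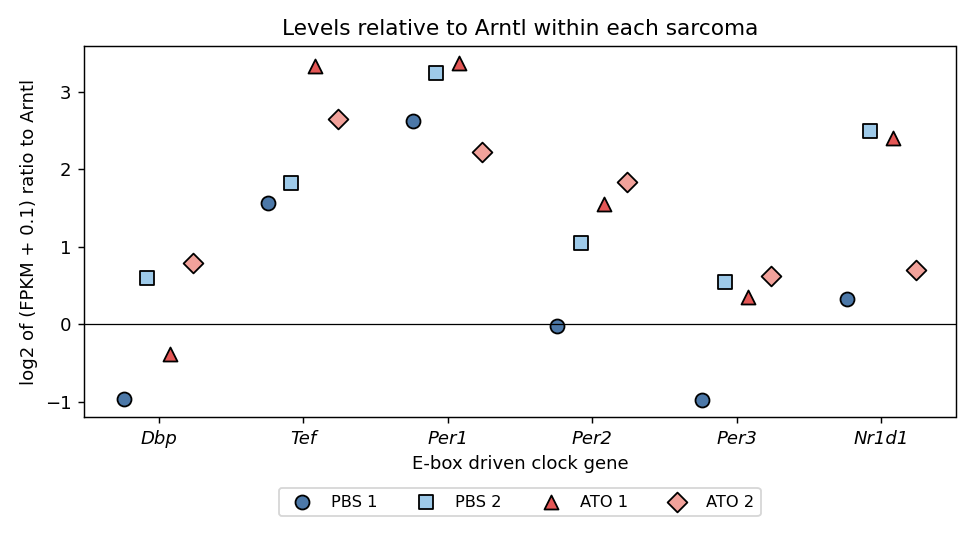
Log2 of the FPKM ratio to Arntl (0.1 FPKM added to both) of 6 clock genes, E-box driven by general knowledge and not by the motif search, 1 point per sarcoma. Only Tef and Per2 are above in both ATO sarcomas. For Dbp the high sarcomas are PBS 2 and ATO 2, and for Nr1d1 they are PBS 2 and ATO 1.

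The rest of the clock was read from lists of 26 further genes by role, all of which were tested. None passed at an adjusted p under 0.05 in edgeR, 3 were past an unadjusted p of 0.05 (Bhlhe41, Usp2 and Nampt, all higher), 19 had a higher and 7 a lower fitted level in ATO, and the median log2 fold change was 0.38. Of all genes tested, 5.44% were past that p and higher, and 49.2% had a higher fitted level. In CPM 9 of the 26 were above in both ATO sarcomas and 5 below, where 19.7% and 20.2% of all genes were. In FPKM these counts were 7 and 5, where 12.8% and 29.6% of all genes were.

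Among the repressors, 3 of 5 were above in both ATO sarcomas, against 19.7% of all genes in CPM and 12.8% in FPKM. Cry2, the paralog of Cry1, was at 23.6, 32.3, 95.7 and 45.6 CPM (log2 fold change 1.34, SE 0.52, edgeR adjusted p = 0.585). Bhlhe41 (DEC2), which competes for E-boxes, was at 5.84, 7.76, 12.3 and 51.6 CPM (log2 fold change 2.23, SE 0.81). Its difference was carried mostly by ATO 2. Ciart, a repressor of CLOCK and BMAL1, was at 3.997, 3.33, 8.46 and 7.05 CPM. Timeless, which in mammals also acts in DNA replication, was below in both ATO sarcomas, at 31.5, 27.1, 24.6 and 17.1 CPM, and Bhlhe40 overlapped. Npas2, which can stand in for CLOCK, was at 2.79, 2.52, 4.89 and 4.49 CPM and thus above in both ATO sarcomas.

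The ROR receptors activate Arntl through the element that NR1D1 represses. Rora was at 20.7, 26.6, 162 and 29.5 CPM, high in ATO 1 alone, and its groups overlapped in FPKM. Arntl, at 3.78, 2.25, 3.07 and 2.52 FPKM, had its highest value in PBS 1, where Rora was lowest. Rorb, at 1.16 CPM at most, overlapped, as did Nr1d2.

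Of 6 kinases and ubiquitin ligases that set the stability of PER and CRY proteins, 4 were below in both ATO sarcomas on both scales, against 20.2% of all genes in CPM and 29.6% in FPKM. Csnk1e, the gene for casein kinase 1 epsilon, was at 131, 146, 79.5 and 70.5 CPM (log2 fold change -0.88, SE 0.37, edgeR adjusted p = 0.597). Csnk1d was at 211, 234, 151 and 128 CPM. These kinases mark PER proteins for breakdown. Fbxl21 (1.74, 2.27, 0.769 and 0.962 CPM) and Fbxw11 (78.9, 100.4, 69.8 and 76.8 CPM) were the others below. Btrc and Gsk3b overlapped.

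Of 9 output targets, 4 were above in both ATO sarcomas in CPM and 3 also in FPKM, against 19.7% and 12.8% of all genes. Usp2, a deubiquitinase gene with a strong rhythm in many tissues, was at 8.68, 9.47, 91.1 and 32.0 CPM (log2 fold change 2.76, SE 0.65), with an edgeR p of 0.00922 before and 0.570 after adjustment. Nampt, which makes the precursor of NAD, was at 80.6, 86.7, 153 and 475 CPM (log2 fold change 1.91, SE 0.68). Usp2 was highest in ATO 1 and Nampt in ATO 2. Tspan4 was at 56.4, 62.7, 92.1 and 107 CPM, and Lonrf3 was above in CPM only, at no more than 4.25 CPM. Wee1, Noct, Por, Coq10b and Ppara overlapped. Hlf, the third PAR bZIP gene, ran from 4.50 to 30.7 CPM without separating the groups, and Nfil3, the repressor that competes for D-boxes, ran from 27.0 to 54.6 CPM.

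**Figure D5:**
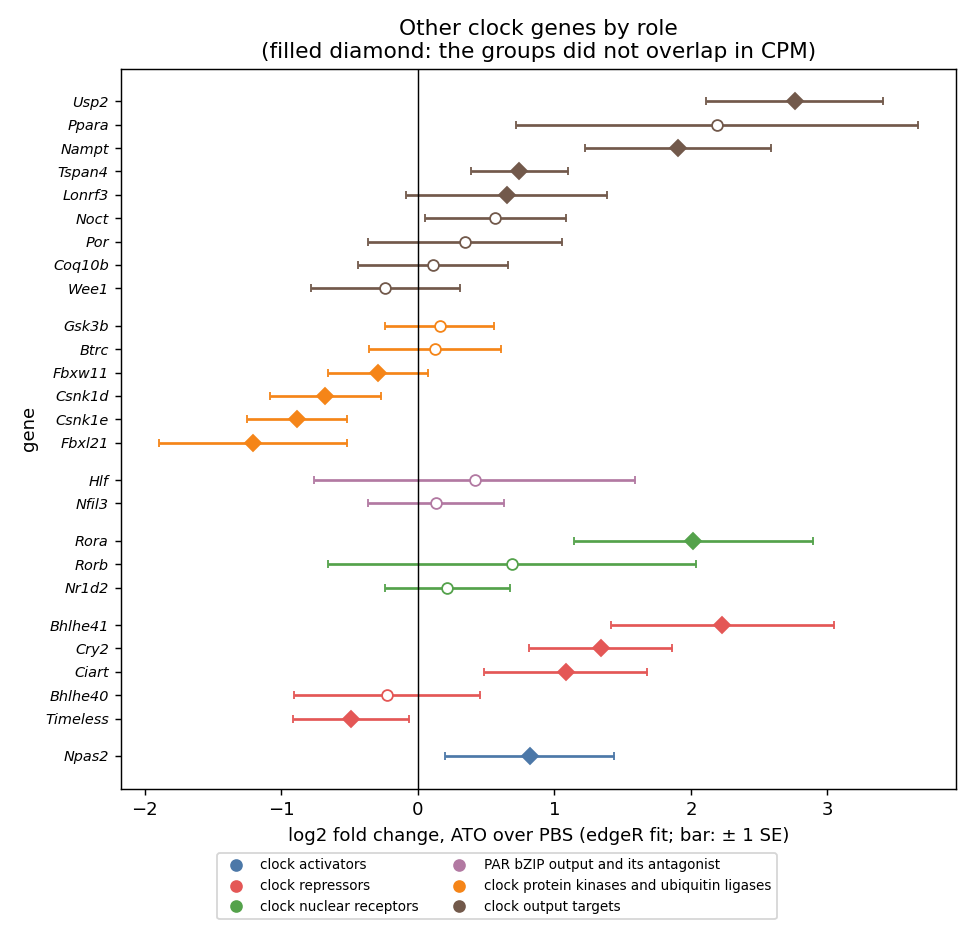
Fitted log2 fold change, ATO over PBS, with bars of ± 1 SE from edgeR, for 26 further clock genes coloured by role; filled diamonds mark genes whose groups did not overlap in CPM. Usp2 and Bhlhe41 lie farthest to the right among the filled diamonds at 2.76 and 2.23, and the 4 kinase and ligase genes Csnk1d, Csnk1e, Fbxl21 and Fbxw11 lie to the left of 0.

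The muscle and adipocyte markers moved with the same split of the sarcomas as Per2, Per3 and Tef. They were higher in both ATO sarcomas in 8 of 8 and 6 of 6 genes, against 19.7% of all genes in CPM. Muscle markers were highest in ATO 1, as were Clock, Per1, Nr1d1 and Tef in CPM and, of the other clock lists, Npas2, Cry2, Ciart, Nr1d2, Rora, Btrc, Gsk3b and Usp2. Adipocyte markers were highest in ATO 2, as were Per2, Per3, Cry1 and Dbp and, of the other lists, Bhlhe41, Hlf, Nfil3, Noct, Tspan4, Por, Lonrf3, Coq10b, Nampt and Ppara. These lists are a description, as the share of all genes highest in ATO 1 or in ATO 2 is not given here. The part of the tissue markers in these results was not tested. With no hour of collection in the labels and 2 sarcomas a group, time of day, tissue content and treatment cannot be told apart. The leukocyte markers, at 278.55, 153, 227 and 353 summed FPKM, were above in both ATO sarcomas in CPM in 1 of 6 genes. The epithelial markers, at 1.36, 8.96, 5.41 and 30.4 summed FPKM, were above in 1 of 5. Both counts are near the 19.7% of all genes that were above in CPM.

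Genes that glucocorticoids switch on in many tissues, and genes that respond within minutes to handling or stress, were read beside the clock. Of 7 glucocorticoid-induced genes, 4 were above in both ATO sarcomas in CPM, against 19.7% of all genes, and in FPKM 3 were above, against 12.8%, and 1 below, against 29.6%. Tsc22d3 (GILZ) was at 75.5, 140, 764 and 206 CPM and Zbtb16 at 8.21, 5.04, 160 and 24.4 CPM, both highest in ATO 1. Klf9, itself a clock-controlled gene in several tissues, was at 84.7, 66.5, 340 and 104 CPM, and Sgk1 at 135, 146, 228 and 274 CPM. Klf9 overlapped in FPKM. Fkbp5, at 311, 135, 476 and 61.8 CPM, overlapped on both scales. Dusp1 and Errfi1 had lower fitted levels in ATO, with log2 fold changes of -0.31 and -0.57, and Errfi1 was the gene below in FPKM. No gene of the list passed the edgeR test after adjustment (smallest adjusted p = 0.570). Of 7 immediate early genes, 0 were above in both ATO sarcomas and 2, Fosb and Jun, were below in CPM, against 20.2% of all genes. In FPKM 3 were below, with Ier2 as the other one, against 29.6%. What part glucocorticoids or handling had in the clock values was not tested.

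The genes whose profile over the 4 sarcomas was most like that of Dbp were Skap2, Cd84 and Tyrobp, among 13874 genes with a mean of at least 1 FPKM. Likeness was the Euclidean distance between log2(CPM + 1) profiles centred on their mean, and it was 0.0636, 0.1005 and 0.144 for these genes. Of the other genes of the set, the nearest to Dbp was Cry1, at rank 91 and a distance of 0.349. For Arntl the nearest genes were Cops7b, Pigc and Dpy19l1, at distances of 0.0475, 0.0648 and 0.0696. The nearest gene of the set to Arntl was Clock, at rank 3118. Ranks were read for the genes of the set only, and a further clock gene may lie nearer. With only 4 points a profile is a description. Skap2 was at 49.7, 88.6, 66.2 and 141 CPM, the same order as Dbp.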

How the data were processed

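RNA-seq was read from 4 sarcomas, grouped as ATO or PBS by the treatment in their labels. Reads were checked with FastQC 0.10.1, trimmed with cutadapt 1.9.1 and aligned with HISAT2 2.0.1, per the submitters' processing notes, and the authors counted them per gene with HTSeq. The authors deposited raw read counts per gene without normalization, and beside them FPKM, which the authors scaled to exonic gene size and total count. Whether counting used strand, and how reads with several alignments were treated, is not given in the sources used here. GRCm38 is the stated build, but only 1472 of 52073 shared genes (2.83%) had the position of GENCODE M21, so positions were taken from that annotation by gene identifier. Promoter windows are from RefSeq (GRCm38.p6), matched by symbol.

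The edgeR quasi-likelihood test (version 4.0.16, R 4.3.3) was run on the counts after filterByExpr, with TMM factors between 0.822 and 1.11, with Benjamini-Hochberg adjustment over all 17188 genes tested and a threshold of 0.05. The script was tested on simulated data. Ratios to Arntl used log2(FPKM + 0.1) and an exact two-sided permutation test for Dbp. Alternatives were DESeq2 1.42.0, its size factors, total counts, no filter, a minimum mean FPKM of 1, a replicate block, each sarcoma left out, no mitochondrial genes, and limma 3.58.1 on log2(FPKM + 1) and log2(FPKM + 0.1). Counts of groups that do not overlap on other scales were added after seeing the data. Depth limits cover counting error only.

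The genes named are all clock genes of the set, the genes of 6 lists of further clock genes that were past an unadjusted p of 0.05 or did not overlap, the 3 genes most like Dbp and Arntl, and marker genes beside a result. Other genes are named by symbol where a count turns on them and were chosen after their values were seen. Some genes of these lists are not reported here. The members and lists were chosen with earlier results of these data known. Values were tabulated with Python 3.11.15, numpy 2.4.6, pandas 2.3.3 and scipy 1.17.1, and figures drawn with matplotlib 3.10.9.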

Additional observations from a re-analysis of the deposited data

How the results depend on the processing

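No clock gene passed an adjusted p under 0.05 in edgeR, DESeq2 or limma under any alternative run, while the number of genes past it went from 0 to 753 with DESeq2 and 541 without the filter on low counts (0 in the other settings). The cause was not tested. Scaling by the total alone moved the median log2 fold change of all genes from -0.016 to -0.28, and limma moved it to -0.18 with 1 FPKM added and -0.27 with 0.1. Under total counts Clock, Arntl and Per1 then changed sign, to -0.18, -0.11 and -0.033. In limma they were at -0.16, -0.058 and -0.19 with 1 FPKM added and at -0.19, -0.067 and -0.20 with 0.1. Relative to the median of all genes, 9, 8 and 9 of the 9 clock genes were higher in these 3 settings. With 1 sarcoma left out, 7 were higher without PBS 1, 8 without PBS 2, 7 without ATO 1 and 9 without ATO 2. With each sarcoma left out in turn, a fit in which the lone sarcoma of a group is assumed to vary like the others, the log2 fold change ran from -0.049 to 0.22 for Clock, -0.18 to 0.59 for Arntl, -0.52 to 0.65 for Per1, -0.70 to 1.31 for Nr1d1 and -0.054 to 1.15 for Dbp. It was above 0 throughout for Per2 (1.25 to 1.58), Per3 (0.54 to 1.35), Tef (1.15 to 1.83) and Cry1 (0.051 to 0.96). Per2, Per3 and Tef were above in both ATO sarcomas on every scale tried.

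The labels do not say that equal replicate numbers mark a shared mouse, litter or day, and the deviations of same-numbered sarcomas from their group means had a correlation of -0.0205 across genes. With the replicate block, 0 genes and 0 clock genes passed, and the log2 fold change was 1.41 for Per2 (edgeR adjusted p = 0.708) and 1.52 for Tef (edgeR adjusted p = 0.700). For the log2 ratio of Dbp to Arntl the replicate block gives the same mean difference, 0.39, by construction in a balanced design, and is no check of it. With each sarcoma left out in turn, the log2 difference in the ratio to Arntl ran from -0.39 to 1.17 for Dbp, -0.95 to 1.22 for Nr1d1, -0.71 to 0.44 for Per1, -0.056 to 1.47 for Per3, 0.65 to 1.72 for Per2 and 0.96 to 1.64 for Tef.

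With at least 99 counts for every clock gene, no clock gene was near the limit of detection. The biological coefficient of variation was 62.5% with 4 sarcomas, and the smallest edgeR adjusted p of any gene tested was 0.570. The lack of calls among the clock genes therefore does not show that they were unchanged. Groups of 2 are too small for a check of single outlying sarcomas.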
